A study of Brassica rapa with 38 samples.

Results

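Gene expression in young leaves of autotetraploid *Brassica rapa* was compared with that of diploid plants of the same genome, using 3 tetraploid libraries (T1, T2 and T3) and 2 diploid libraries (D1 and D2), which are 5 of the 8 RNA-seq libraries and of the 38 samples in the series. Both ploidies carried the genotype 85_1, an inbred line, and the labels name no treatment beyond growth and sampling. Inner young leaves of greenhouse plants were taken at the heading stage, 60 days after sowing. By the methods of the study, a monoploid raised from a microspore of this line was given colchicine to yield the diploid, and the diploid was given colchicine again to yield the autotetraploid, and all plants were multiplied in tissue culture. Both ploidies thus trace to microspore-derived material of this line, the tetraploid passed through colchicine once more than the diploid, and the number of plants in an RNA-seq library was not stated. The design calls the replicates biological, but how plants were divided among the RNA-seq libraries was not stated, so the p-values measure the spread between these libraries. The design names 3 RNA-seq replicates for each ploidy, and 2 diploid libraries were used here. The values were StringTie's transcript abundances (TPM), corrected for gene length and expressed as shares of the library's whole, so that all libraries add up alike. Of the 46479 gene models, 24670 (53.1%) reached 1 TPM in at least 2 of the 5 libraries and were tested.

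An autopolyploid carries extra copies of the same chromosome set, so each gene keeps its alleles and its balance with other genes while cells and organs usually grow larger. A change in all transcripts together is invisible to TPM, because a cell with more RNA of every gene has the same shares. A change in the copy number of a single chromosome is different: it alters the balance between that chromosome and the rest, and shows as a shift of its genes together. The libraries were compared on log2(TPM + 1) after the median of each chromosome, A01 to A10, had been set equal in all 5 libraries. A difference of 1 on this scale is 2-fold for a well expressed gene and understates the fold of genes near or below 1 TPM.

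The gene models are listed by identifier only, and 0 of the 46479 identifiers occur in the RefSeq gene table of the species. Genes are therefore given by identifier and position, without a function, and the leaf label could not be checked against marker genes. Their genome build was not given in the sources used here, and positions are those of the files. The libraries held between 5.86 and 8.06 Gb of bases aligned to gene models, and the 10 most abundant transcripts took 5.55% to 7.42% of TPM. D2 stood apart: its table is sorted and formatted unlike the other 4, its FPKM values summed to 930534 against 800814 to 842960 in those libraries, and it lists 16759 gene models at 0 against 15026 to 15871. No libraries were copies of each other, since replicates differed by more than 0.1 in log2(TPM + 1) in 67.4% to 71.8% of genes.

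Tetraploid and diploid leaves differed little. The median absolute change was 0.12 log2 units, or 1.09-fold. For 90% of genes the absolute change was at most 0.39, or 1.31-fold. It was under 0.25 for 19187 genes (77.8%) and under 0.5 for 23225 genes (94.1%). A change of at least 1 was seen for 276 genes (1.12%), 206 of them higher and 70 of them lower in the tetraploid than in the diploid. With D1 as the only diploid library these were 219 and 105 genes, and with D2 as the only one they were 294 and 120. Only 97 genes stood at least 1 above, and 35 at least 1 below, both diploid libraries taken singly. Of the 276 genes, 95 averaged under 5 TPM and 181 averaged 5 TPM or more.

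**Figure D1:**
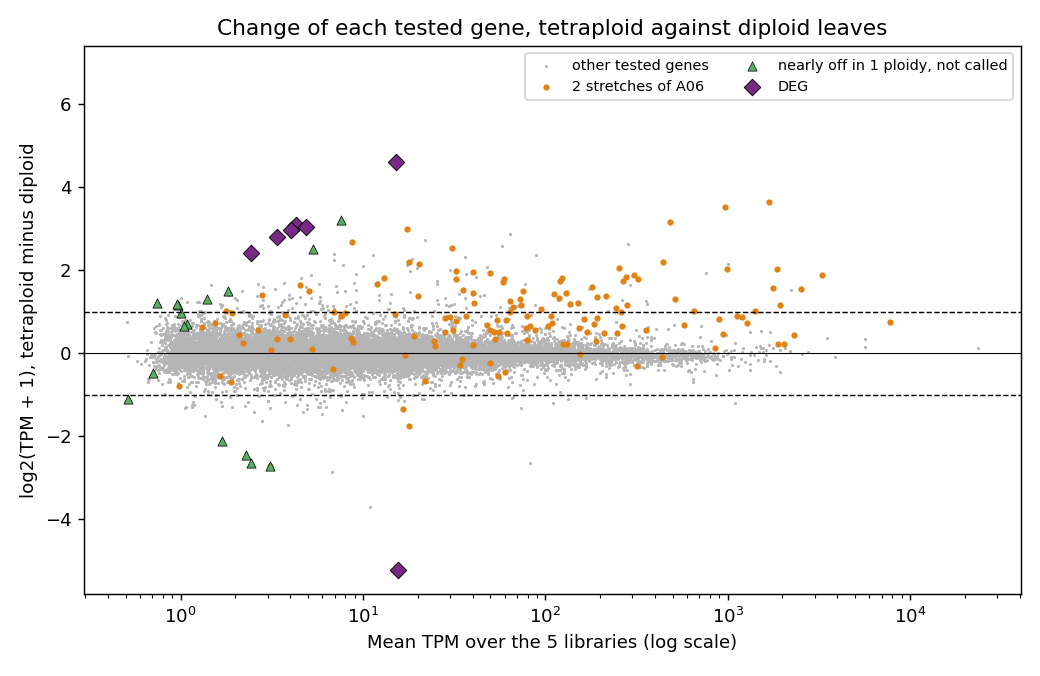
Change of each of the 24670 tested genes in log2(TPM + 1), tetraploid minus diploid, against its mean TPM over the 5 libraries on a log axis; dashed lines mark changes of 1 and -1. Diamonds are the 7 DEGs, triangles the other genes nearly off in 1 ploidy, and orange points the genes of 2 stretches of chromosome A06, most of which lie above 0.

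The differences that crossed ploidy were about as large as those between replicates. Between single libraries, the median absolute difference ran from 0.159 to 0.213 in the 6 pairs of a tetraploid with a diploid library, and from 0.164 to 0.194 in the 4 pairs of replicates. The number of genes apart by at least 1 was 488 to 757 in the pairs that crossed ploidy and 388 to 635 among replicates. T3 and D2, of different ploidy, were the closest of the 10 pairs at 0.159, and T2 lay at 0.166 from D1 but at 0.184 from T1 and 0.19 from T3. The 3 tetraploid pairs (0.184, 0.19 and 0.194) were thus further apart than 4 of the 6 pairs that crossed ploidy. The diploid pair lay at 0.164.

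**Figure D2:**
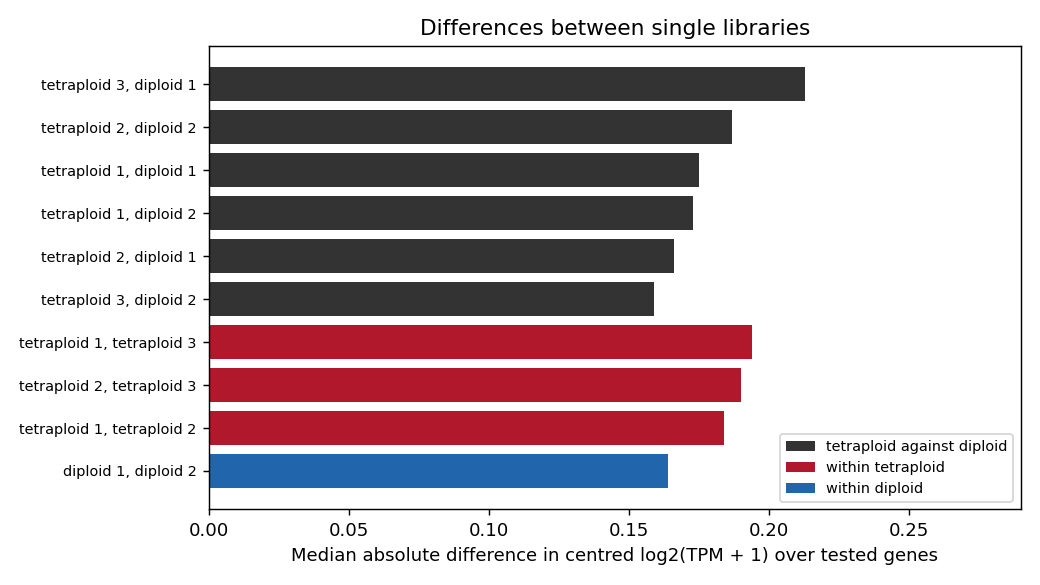
Median absolute difference in centred log2(TPM + 1) over tested genes for each pair of libraries, with bars from 0. The 6 pairs of a tetraploid with a diploid library (0.159 to 0.213) overlap the 3 tetraploid pairs and the diploid pair (0.164 to 0.194).

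The step to the monoploid was larger. In a fit of all 8 RNA-seq libraries the median absolute change was 0.12 for tetraploid minus diploid, 0.3 for tetraploid minus monoploid and 0.3 for diploid minus monoploid. The genes with a change of at least 1 numbered 276, 2530 and 2302 in the same order. These contrasts share libraries, and the difference between them was not tested.

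Differentially expressed genes (DEGs) were those with a limma adjusted p of at most 0.05 and a change of at least 1 in either direction. There were 7 DEGs, 0.0284% of the genes tested: 6 were higher in the tetraploid (0.0243%) and 1 was lower (0.00405%). All 7 were nearly off in a ploidy, and no gene passed the p threshold with a smaller change. Each passed the filter of 1 TPM only through the ploidy where it was on. Values near 0 vary little on the log2(TPM + 1) scale, which favours such genes in the test. Without adjustment 1412 genes (5.72%) had p of at most 0.05, 790 higher and 622 lower in the tetraploid. That share is close to what the threshold itself passes where nothing changes. The libraries of the 2 groups did not overlap for 5316 genes, 21.5% of those tested, and 217 of the 276 genes with a change of at least 1 were among them. With so few libraries, values in random order would part the groups in a similar share of genes.

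The DEG with the largest change was nearly off in the tetraploid. In leaf tissue, fewer cells of a type that express a gene and less of its RNA per cell cannot be told apart. BRA02G0023556 (A02, bases 2737150 to 2738439, plus strand) had 0.188, 0.192 and 0.0745 TPM in T1, T2 and T3, against 37.4 and 40.0 TPM in D1 and D2. Every tetraploid library was near 0 and both diploid libraries were close together. Its change was -5.21 ± 0.18 (SE, limma adjusted p = 0.00088). The monoploid libraries, at 28.6, 33.1 and 26.8 TPM, were near the diploid level, so the gene was low in the tetraploid alone among the 3 ploidies. The tested genes on either side had like values in both groups: BRA02G0023559, 4935 bases away, had 210, 168 and 192 TPM in the tetraploid against 180 and 179 TPM in the diploid, and BRA02G0023555, 2237 bases away, had 25.6, 17.2 and 24.0 TPM against 17.2 and 20.6 TPM. This was the only DEG that passed in every alternative tried, with adjusted p between 3.1e-06 and 0.043.

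The other 6 DEGs were on in the tetraploid and nearly off in the diploid. BRA01G0018102 (A01, bases 6757948 to 6758748, minus strand) had 20.8, 38.9 and 16.3 TPM in the tetraploid against 0.0579 and 0.102 TPM in the diploid, a change of 4.60 ± 0.33 (SE, limma adjusted p = 0.03). It was low in the monoploid too, at 0.31, 0.351 and 0.314 TPM, so all 5 libraries of the lower ploidies lay under 0.5 TPM. A short way along the same chromosome, BRA01G0018189 (bases 6345899 to 6347029, plus strand) had 6.87, 5.92 and 8.61 TPM in the tetraploid and was listed at 0 in both diploid libraries and in all monoploid libraries (limma adjusted p = 0.015). These 2 genes lie 0.41 Mb apart, and the 2 tested genes on each side of both had changes between -0.16 and 0.16. BRA01G0018096, among the 10 most abundant transcripts of the leaf, is the second tested gene beyond BRA01G0018102, at 5150, 6240 and 5900 TPM in the tetraploid against 5610 and 5310 TPM in the diploid.

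**Figure D3:**
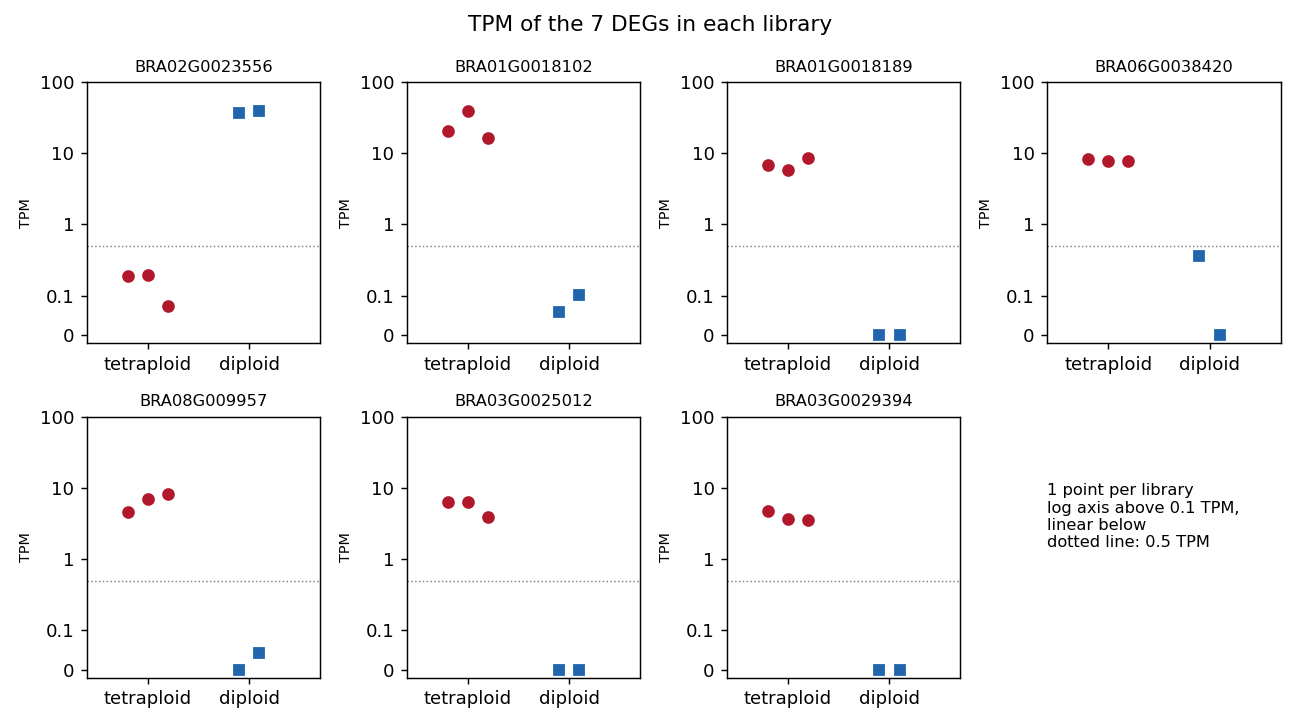
TPM of the 7 DEGs in each library, tetraploid left and diploid right, 1 point per library, on an axis that is logarithmic above 0.1 TPM and linear below; the dotted line is 0.5 TPM. In BRA02G0023556 the 3 tetraploid libraries lie under the line and both diploid libraries at 37.4 and 40.0 TPM; in the other 6 genes the tetraploid libraries lie at 3.62 TPM or more and the diploid libraries under the line.

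BRA06G0038420 (A06, bases 45682003 to 45682682, minus strand) had 8.43, 7.73 and 7.91 TPM in the tetraploid against 0.363 and 0 TPM in the diploid, a change of 3.04 ± 0.19 (SE, limma adjusted p = 0.015). The monoploid libraries were listed at 0. Its nearest tested neighbour, BRA06G0038421, ends 861 bases away on the opposite strand, so that the 3′ ends of both genes face each other. Whether the reads kept their strand was not stated, and where such genes run into each other their reads could not be told apart without it. That gene was also nearly off in the diploid, with 1.12, 1.18 and 1.38 TPM in the tetraploid against 0.0448 and 0 TPM in the diploid, but was not called (change 1.21 ± 0.21, adjusted p = 0.38). The next genes out, BRA06G0038422 and BRA06G0038419, had changes of 0.17 and 0.12.

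The remaining 3 DEGs had lower levels. BRA08G009957 (A08, bases 19928397 to 19929737, plus strand) had 4.65, 6.99 and 8.36 TPM in the tetraploid against 0 and 0.0425 TPM in the diploid, a change of 2.98 ± 0.25 (SE, limma adjusted p = 0.039), and was listed at 0 in the monoploid. BRA03G0025012 (A03, bases 4089784 to 4091214, minus strand) had 6.46, 6.46 and 3.96 TPM in the tetraploid and was listed at 0 in both diploid libraries (adjusted p = 0.038), with 0.112, 0.338 and 0.228 TPM in the monoploid. Its neighbour BRA03G0025011, only 377 bases away, had 12.9, 11.8 and 13.3 TPM in the tetraploid against 12.5 and 15.0 TPM in the diploid.

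BRA03G0029394 (A03, bases 26334350 to 26334650, minus strand), the shortest of the DEGs, had 4.84, 3.68 and 3.62 TPM in the tetraploid and was listed at 0 in both diploid libraries (adjusted p = 0.038). In the monoploid it had 2.63 and 3.52 TPM in replicates 1 and 2 and was listed at 0 in replicate 3, so its on and off states also differed between replicates of a ploidy. BRA03G0029395, which starts 4509 bases away on the other strand, pointed the same way: it had 20.3, 40.0 and 26.6 TPM in the tetraploid against 5.85 and 6.94 TPM in the diploid, a change of 2.06 that was not called (adjusted p = 0.22). It was the only one with a change of at least 1 among the tabulated neighbours, which were the 2 tested genes on each side of the DEGs and of 10 other nearly-off genes (17 of the 23) and came to 67 genes that were not nearly off themselves. Among these 67 genes the median absolute change was 0.11, against 0.12 over all tested genes, and 61 had a change of less than 0.5.

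The number of DEGs with a library left out was 2 without T1, 3 without T2, 1 without T3, 4 without D2 and 43 without D1. Without a diploid library the other is the only one, and the spread comes from the tetraploid libraries alone, so that the lone library is assumed to vary like them. Of these 43 genes, which rest on D2 as the only diploid library, 40 were higher and 3 lower in the tetraploid, 23 lay in 2 stretches of A06 described below, and 4 were among the 7. With the replicate number as a block there was 1 DEG, BRA02G0023556. Each of the other 6 was lost in 6 to 8 alternatives, which included the removal of T1 and of T3 for all 6 genes. Not counted there are the threshold of 0.01, which none of the 6 passed, and the removal of 5 of them by the limit of 5 TPM. BRA03G0029394 reached a limma adjusted p of 0.46 when the monoploid libraries entered the fit.

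Genes at or under 0.5 TPM in every library of a ploidy and at or over 1 TPM in every library of the other were taken as nearly off. There were 23: 16 nearly off in the diploid, 6 of them DEGs, and 7 nearly off in the tetraploid, 1 of them a DEG. They were weakly expressed where they were on, with a median of 3.41 TPM in the tetraploid for the 16 and 5.66 TPM in the diploid for the 7. Their gene models were short, with a median span of 1131 bases against 1760 for all tested genes. Of the 16, 10 were also at or under 0.5 TPM in every monoploid library and 1 was at or over 1 TPM in all of them. Of the 7, these numbers were 3 and 1.

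Of the genes nearly off in the diploid, BRA09G0034252 (A09, bases 52457916 to 52459301) had 4.11, 21.2 and 12.3 TPM in the tetraploid against 0.301 and 0.15 TPM in the diploid, a change of 3.20 ± 0.64 (adjusted p = 0.51). The monoploid replicates had 28.7, 44.8 and 0.248 TPM, and thus spanned both states. BRA05G0043686 (A05, bases 7587879 to 7588953) had 1.95, 22.4 and 2.01 TPM in the tetraploid, where T2 alone was high, against 0 and 0.241 TPM in the diploid (change 2.50 ± 0.88, adjusted p = 0.82). BRA08G008142 (A08, bases 29332608 to 29335930) had 2.02, 4.72 and 1.60 TPM in the tetraploid against 0.431 and 0.284 TPM in the diploid, and BRA05G0046307 (A05, bases 42726669 to 42728684) had 1.40, 2.25 and 2.67 TPM against 0.359 and 0.288 TPM. Neither passed (adjusted p = 0.58 and 0.43).

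The last 6 genes of this kind had at most 2.31 TPM in any tetraploid library and changes of 0.65 to 1.21. They were BRA02G0023138, BRA02G0023254, BRA04G00850, BRA04G00851, BRA06G0038421 and BRA09G0030995. BRA04G00850 and BRA04G00851 adjoin each other on the plus strand of A04 (bases 5076890 to 5077222 and 5077267 to 5078184): the first had 1.60, 1.35 and 1.53 TPM in the tetraploid against 0.406 and 0.128 TPM in the diploid, and the next 1.22, 1.07 and 2.31 TPM against 0.214 and 0 TPM. These levels sit close to the limits of 0.5 and 1 TPM that define the class, and none of the 6 genes passed the test.

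Besides BRA02G0023556, 6 genes were nearly off in the tetraploid, and 3 of them were on in the diploid alone. BRA07G003586 (A07, bases 680062 to 680373) was listed at 0 in all 3 tetraploid libraries, against 3.54 and 8.54 TPM in the diploid (adjusted p = 0.21). BRA08G008793 (A08, bases 26490557 to 26491375) was likewise at 0 in the tetraploid, against 1.72 and 6.75 TPM in the diploid (adjusted p = 0.51), and BRA03G0029115 (A03, bases 24564100 to 24564372) had 0, 0.0894 and 0.0198 TPM against 8.52 and 2.81 TPM (adjusted p = 0.35). All 3 were listed at 0 in every monoploid library, and the diploid replicates differed from each other by 2-fold or more.

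The other 3 were BRA06G0039933, BRA06G0038654 and BRA05G0044928. BRA06G0039933 (A06, bases 30264347 to 30266113), which lies within a stretch of A06, had 0, 0.257 and 0.053 TPM in the tetraploid against 11.4 and 3.81 TPM in the diploid (change -2.72 ± 0.40, adjusted p = 0.33). BRA06G0038654 (A06, bases 44468655 to 44470312) was listed at 0 in the tetraploid, against 1.41 and 1.15 TPM in the diploid (adjusted p = 0.51). BRA05G0044928 (A05, bases 35015201 to 35015896) had 0.45, 0.383 and 0.458 TPM in the tetraploid against 1.19 and 1.03 TPM in the diploid, a change of -0.47 on the log2(TPM + 1) scale. With 0.1 in place of 1 TPM added, its change was -1.09, so its bound within 2-fold rests on the added 1 TPM.

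Single libraries differed in the same way from all the others. With the same limits, T1 was alone in being nearly off for 23 genes, T2 for 7, T3 for 10, D1 for 22 and D2 for 34. The genes on in a single library and nearly off in the other 4 numbered 18 for T1, 29 for T2, 17 for T3, 25 for D1 and 48 for D2. An example, chosen after its values were seen, is BRA01G0018485, with 0.232, 16.9 and 0.193 TPM in the tetraploid against 0.136 and 0.224 TPM in the diploid. Each of the 10 counts is 7 or more, and 7 and 16 genes separated the ploidies. These counts are not like for like, since a single library meets the limits more easily than several that must agree. Genes on in a single library also fail the filter and are not among the tested genes.

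A p-value above the threshold does not bound a change, so the bound was tested itself. A gene was called bounded within 2-fold where 2 one-sided limma tests placed its change between -1 and 1 with an adjusted p of at most 0.05. This held for 22976 genes, 93.1% of those tested, and failed for 1694, of which 843 averaged under 5 TPM. The 95% confidence interval is stricter than each 1-sided test, so in a bounded gene it can reach past -1 or 1. It lay between -1 and 1 for 22257 genes (90.2%), and at the median it reached 0.37 to either side of the estimate. Within a narrower margin of 0.5, or 1.41-fold, 11508 genes (46.6%) were bounded.

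The bounds were widest for weakly expressed genes, although the added 1 TPM compresses their changes. Of the 6303 genes averaging under 5 TPM, 86.6% were bounded within 2-fold and the interval reached 0.51 to either side at the median. The share was 95% of 9889 genes at 5 to 20 TPM, 96.4% of 6655 genes at 20 to 100 TPM and 93.7% of 1823 genes at 100 TPM and above. Within the margin of 0.5 the shares were 13.1%, 51.9%, 67.4% and 58.3% from the lowest class to the highest. The highest class also held the largest share of genes with a change of at least 1, at 2.6% (47 genes), and 31 of these 47 lay in the 2 stretches of A06.

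Of the 10 most abundant transcripts, 7 were bounded within 2-fold. The most abundant, BRA04G001209 (A04, bases 17779068 to 17779872), had 20900, 24700 and 27400 TPM in the tetraploid against 20500 and 24300 TPM in the diploid. The groups overlapped, and its change of 0.12 had an interval from -0.94 to 1.18 (equivalence adjusted p = 0.048). BRA01G0018687 had 5860, 6120 and 6210 TPM in the tetraploid against 5490 and 4710 TPM in the diploid. Here the tetraploid libraries were all above the diploid ones, with a change of 0.34 (95% interval -0.28 to 0.97).

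BRA05G0043040 (A05) had 3830, 3840 and 3400 TPM in the tetraploid against 4380 and 3920 TPM in the diploid, a change of -0.08 (-0.63 to 0.47). BRA09G0031965 (A09) had 3410, 2180 and 2210 TPM against 2380 and 2640 TPM, a change of -0.01 (-0.54 to 0.52). BRA01G0018096, given above as a neighbour of DEGs, had a change of 0.16 (-0.47 to 0.79). All 3 were bounded, as were BRA09G0032805 (0.36, -0.3 to 1.02) and BRA06G0038137 (0.04, -0.66 to 0.73).

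The 3 that were not bounded all lie in the longer stretch of A06. BRA06G0039864 had 8610, 7670 and 10600 TPM in the tetraploid against 8050 and 3940 TPM in the diploid (change 0.75, interval -0.22 to 1.72). BRA06G0039868 had 3990, 3910 and 5630 TPM against 2290 and 709 TPM (1.89, 0.69 to 3.10), and BRA06G0039853 had 2930, 2340 and 4820 TPM against 1850 and 744 TPM (1.54, 0.40 to 2.68). In all 3 genes D2 was the lowest library, and none was called (adjusted p = 0.87, 0.67 and 0.75).

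Before centring, 3 chromosomes stood above the rest, each in tetraploid libraries. For each library, the difference of every gene from its diploid mean was taken, and the median over a chromosome was set against the median of the 10 chromosomes. A02 stood at 0.29 in T1 and in T3, A09 at 0.28 in T1 and A04 at 0.29 in T2, and no other chromosome of a tetraploid library was more than 0.02 from 0. The diploid libraries mirror each other about their own mean in this measure. Set against the monoploid mean instead, the same 4 values were 0.26, 0.27, 0.29 and 0.27, and the 10 chromosomes of D1 and D2 lay between -0.02 and 0.02. Each tetraploid library thus had its own set of raised chromosomes, and T1 had a pair of them. The chromosome shifts involved 2289 tested genes of A02, 1642 of A04 and 3566 of A09, and their origin was not tested.

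**Figure D4:**
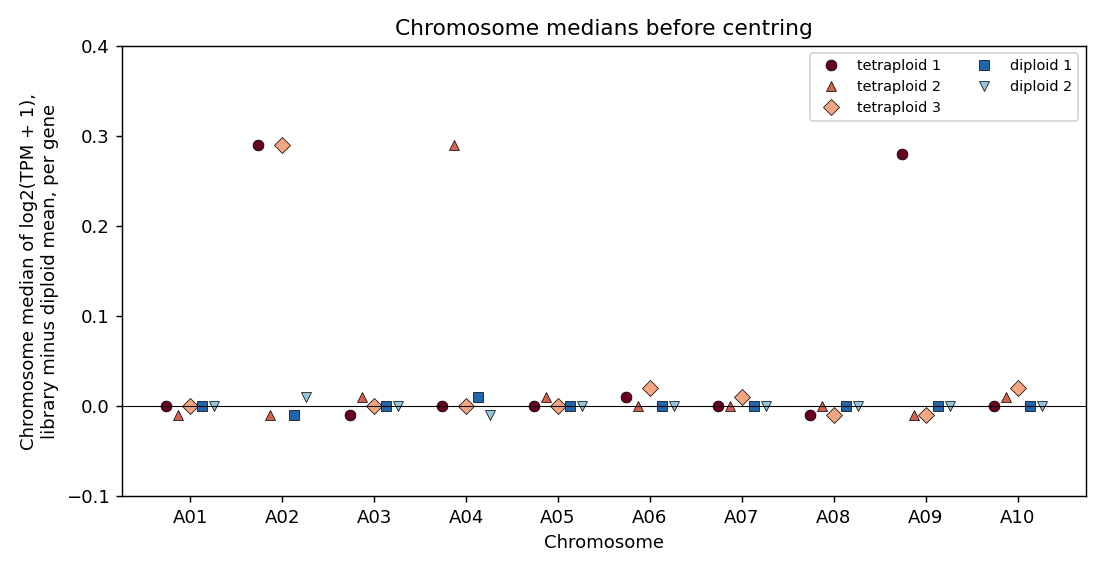
Median over each chromosome of log2(TPM + 1) minus the gene's diploid mean, relative to the median of the 10 chromosomes of that library, before centring, for the 3 tetraploid and 2 diploid libraries. A02 lies at 0.29 in tetraploid 1 and 3, A09 at 0.28 in tetraploid 1 and A04 at 0.29 in tetraploid 2; all other points lie within 0.02 of 0, and the diploid points mirror each other because their mean is the baseline.

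Without centring the median change of all tested genes was -0.05, and centring itself sets it near 0, at 0.001. The DEGs did not depend on it: 7 were called with and 7 without centring, and they were the same 7 genes. After centring the median change of each chromosome lay between -0.02 and 0.01. The DEGs fell on A01 (2), A02 (1), A03 (2), A06 (1) and A08 (1). Genes with a change of at least 1 made up 0.53% to 1.14% of 9 chromosomes, with A10 lowest, and 2.97% (81 genes) of A06.

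What was left after centring was local. Over 24430 windows of 25 neighbouring tested genes, the median change was within 0.1 of 0 in 23494 windows (96.2%). It was at least 0.25 in size in 152 windows, all on A06. Outside A06 the window medians ran from -0.19 to 0.21, and on A06 they reached 1.36.

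The windows on A06 came from 2 stretches bounded by gaps of over 1 Mb without tested genes, the shorter from base 25337322 to 25395628 with 13 tested genes and the longer from 29851436 to 30516088 with 129. Both were chosen by their change, so their values are a description without a test. In the longer, 5 genes with changes of 0.13 to 0.56 stand apart from the other 124, and the step of 315 kb between them holds no tested gene. In all, 114 of its 129 genes were higher in the tetraploid, the median change was 0.87, and 52 genes were at least 1 higher and 2 at least 1 lower. In the shorter, 11 of 13 were higher and the median change was 0.73. Neither held a DEG, and 27 of the 142 genes were bounded within 2-fold.

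The 2 diploid libraries were unlike each other there. Relative to the tetraploid mean, the median gene of the longer stretch stood at -0.55 in D1 and -1.12 in D2, while the tetraploid replicates stood at 0.06, -0.02 and 0. In the shorter stretch the medians were -0.25 in D1 and -1.46 in D2. The 142 genes together took 5.35% to 6.83% of TPM in the tetraploid libraries, against 4.85% in D1 and 2.2% in D2, and 8.38%, 7.38% and 10.2% in the monoploid replicates. D2 was lowest of the 5 libraries for 88 of the 129 genes of the longer stretch, and D1 was below all 3 tetraploid libraries for 96. Both diploid libraries were below all 3 for 80. Over all 24670 tested genes both were below all 3 for 2747, and the stretches were chosen by their change. Some gene starts of the longer stretch repeat with the same spacing. BRA06G0039908, BRA06G0039907, BRA06G0039906 and BRA06G0039905 start 471.67, 472.1, 472.88 and 480.12 kb into it. BRA06G0039852, BRA06G0039851, BRA06G0039850 and BRA06G0039849 start at 648.11, 648.54, 649.32 and 656.56 kb. Whether some of the 129 genes are copies of each other was not tested. Reads shared by near-identical gene copies could not be told apart from these tables, and how they were assigned was not stated. The part that the format and FPKM sum of D2 play in this was not tested.

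**Figure D5:**
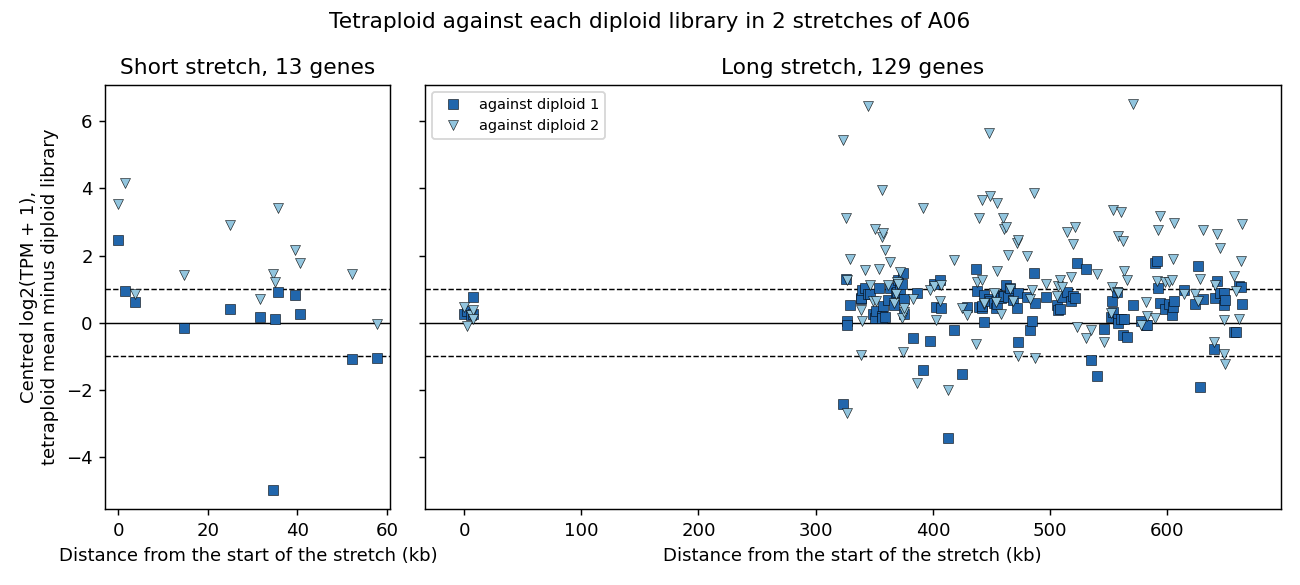
Tetraploid mean minus each diploid library in centred log2(TPM + 1) for the 13 and 129 tested genes of 2 stretches of A06, against distance from the start of the stretch; dashed lines mark 1 and -1. At the median, differences from diploid 2 (triangles) lie further from 0 than those from diploid 1 (squares), though some genes go the other way. The median gene of the longer stretch stood at -1.12 in diploid 2 and -0.55 in diploid 1 relative to the tetraploid mean.

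The genes given next were chosen by their large changes, and most genes of the stretches changed less. BRA06G0039962 (A06, bases 30195760 to 30197220) had the largest rise. It had 1830, 1630 and 3660 TPM in the tetraploid against 1300 TPM in D1 and 26.4 TPM in D2, a change of 3.65 ± 1.46 (adjusted p = 0.86). BRA06G0039874 had 1250, 1170 and 1480 TPM against 942 and 14.3 TPM, and BRA06G0039921 had 589, 558 and 834 TPM against 421 and 13 TPM. BRA06G0039902 had 7.99, 15.3 and 16.0 TPM against 4.18 and 0 TPM. In these genes D1 lay nearer to the tetraploid than to D2 on the log scale. BRA06G0039998, in the shorter stretch, had 3.97, 80.0 and 2.00 TPM in the tetraploid, where T2 was high, against 1.04 and 0 TPM in the diploid.

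Outside these stretches 148 genes were at least 1 higher and 67 at least 1 lower in the tetraploid, and 99% of the 24528 genes had an absolute change of at most 0.93, against 1.04 with the stretches in. Adjacent tested genes that both changed by at least 1 in the same direction formed 42 pairs, 27 of them inside the stretches, all higher in the tetraploid, and 15 elsewhere. In 8 of these 15 the libraries of both genes separated by ploidy. Taken singly, 217 of all 276 genes with a change of at least 1 did so, and whether pairs exceed that share was not tested.

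The 10 genes averaging 5 TPM or more with the largest changes that were not called were 8 higher and 2 lower in the tetraploid, and 5 of them lay in the stretches of A06. Of the other 5, BRA09G0034252 is given above. BRA03G0029146 (A03, bases 24760320 to 24761423) had 0.315, 3.97 and 0.0415 TPM in the tetraploid against 23.6 and 27.1 TPM in the diploid. The groups were far apart, but T2 differed from T1 and T3, and the change of -3.71 ± 0.62 did not pass (adjusted p = 0.38). Its monoploid levels were 13.1, 27.9 and 13.7 TPM. BRA06G0042122 (A06, bases 1941996 to 1942992) had 6.19, 0 and 0 TPM against 14.2 and 13.7 TPM, a change of -2.86 ± 0.84 (adjusted p = 0.74).

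BRA10G0013976 (A10, bases 5806155 to 5806434) had 105, 94.8 and 65.9 TPM in the tetraploid against 51.6 and 2.05 TPM in the diploid, so its change of 2.87 ± 1.07 came mainly from D2 (adjusted p = 0.84). BRA07G006595 (A07, bases 29516172 to 29516892) had 75.6, 26.1 and 2.95 TPM against 1.09 and 4.02 TPM, and the groups overlapped (2.72 ± 1.15, adjusted p = 0.86).

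Of the 24670 tested genes, 27 had every tetraploid library at least 1 away from every diploid library. The tetraploid libraries were above in 17 of these genes and below in 10. How many such genes another split of the 5 libraries would give was not tested. All 7 DEGs were among the 27, and 14 of the 27 were nearly off in a ploidy. The other 13 were outside those limits, with limma adjusted p between 0.21 and 0.8. The following 4, chosen after their values were seen, had the highest levels. BRA03G0028108 (A03) had 1210, 1460 and 587 TPM in the tetraploid against 310 and 256 TPM in the diploid (1.93 ± 0.37, adjusted p = 0.46), with 376, 41.5 and 57.7 TPM in the monoploid.

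BRA02G0022564 (A02) had 43.8, 54.7 and 6.53 TPM in the tetraploid against 156 and 149 TPM in the diploid (-2.64 ± 0.86, adjusted p = 0.8), and 295, 283 and 264 TPM in the monoploid. BRA07G007491 (A07) had 43.8, 95.8 and 68.7 TPM against 18.6 and 13.8 TPM (2.07 ± 0.32, adjusted p = 0.34), and 1.60, 2.78 and 4.72 TPM in the monoploid. BRA08G009576 (A08) had 33.6, 79.7 and 47.1 TPM against 7.42 and 13.4 TPM (2.31 ± 0.37, adjusted p = 0.37), and 6.93, 4.82 and 28.2 TPM in the monoploid. In BRA02G0022564 the libraries ordered as monoploid, diploid and tetraploid from high to low, and in BRA07G007491 from low to high, with no overlap between ploidies in either gene.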

How the data were processed

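RNA-seq of young leaves was analysed from 3 tetraploid and 2 diploid libraries, with 3 monoploid libraries as description. Per the labels and the methods of the study, the authors trimmed paired reads with fastp 0.21.0, aligned them with HISAT2 (version 2.2.1 in the submitters' processing notes) and quantified gene models with StringTie 1.3.5. The genome build was not given in the sources used here. The deposited tables hold TPM, FPKM and the mean coverage of each gene model. TPM was analysed. FPKM was summed to compare libraries, and coverage times gene length gave the aligned bases. Read counts were not used here, so a count model was not run.

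Genes that reached 1 TPM in 2 or more libraries were kept, log2(TPM + 1) was taken, and each library was shifted so that the median of every chromosome was equal across libraries. limma 3.58.1 (R 4.3.3) with a variance trend gave moderated two-sided tests, adjusted by Benjamini-Hochberg over all 24670 genes. Intervals are 95% limma intervals. Equivalence used 2 one-sided moderated tests at -1 and 1. The fitting code was tested on simulated data. The depth of 5.86 to 8.06 Gb limits weakly expressed genes most.

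Named genes were every DEG, the nearly-off genes (the 10 with the largest changes in a direction, with the rest added after their values were seen), the 10 most abundant, the 10 uncalled genes of at least 5 TPM with the largest changes, and the 2 tested neighbours on each side of the DEGs and of the nearly-off genes named by this rule (17 genes). No gene passed the p threshold with a change under 1, and no gene was called only without centring. The comparison, the members and the rules were chosen with earlier results of these data known. Alternatives changed the centring, pseudocount, filter, thresholds, libraries, variance model and replicate block. Removal of the A06 stretches was chosen after seeing the data. Gene lists by function were not used because no identifier matched a gene name. Chromatin data of the series were not analysed here.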

Additional observations from a re-analysis of the deposited data

How the results depend on the processing

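Of the 7 DEGs, 7 were called again under each other centring, without a variance trend, with robust variances, without a minimum fold change and without the A06 stretches. With all 8 libraries 7 genes were called, 6 of them shared, and with a pseudocount of 0.1 there were 6. The count fell to 1 without the filter on low values, 1 at an adjusted p of 0.01 and 1 with the replicate block. It was also 1 with a mean of at least 5 TPM, a limit that removes 5 of the 7 before the test. The gene left was BRA02G0023556 each time. Leaving out a library gave 1 to 43 DEGs, and the cause was not tested. Deviations of same-numbered tetraploid and diploid libraries had correlations of 0.036 and -0.241, against -0.281 to 0.281 in pairs of unlike number. The 2 diploid libraries mirror each other about their mean, so these values cannot show whether same-numbered libraries share a batch. The share of genes bounded within 2-fold was 93.1% in the main fit. It was 92.1% to 93.2% with other centring, other variance models, the replicate block or all 8 libraries. It fell to 85% (20962 genes) with a pseudocount of 0.1. It was 94.4% of 34848 genes without the filter and 95.4% of 18368 genes averaging at least 5 TPM. Without a tetraploid library it was 91.5% to 92%. It was also below the main fit without a diploid library. A margin of 0.5 asks for a tighter bound, which 11508 genes met. The median absolute change was 0.14 without centring, 0.134 with a pseudocount of 0.1, 0.105 at a mean of at least 5 TPM and 0.124 to 0.152 without a library. Nearly-off genes numbered 9 with off at 0.1 TPM, 11 with on at 2 TPM and 37 to 62 without a library, where fewer libraries must meet the limits. With 3 and 2 libraries a group, the 95% interval of the median gene reached 0.37 log2 units to either side, and it was wider below 5 TPM.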
